A study of Rattus norvegicus with 36 samples.

Results

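The chaperones and stress genes of the endoplasmic reticulum were measured in thyroid tissue of adult male Sprague Dawley rats 24 h after injection of 131I. The set held 10 genes, given by name as Hspa5, Hsp90b1, Pdia4, Pdia3, Calr, Canx, Sdf2l1, Xbp1, Dnajb9 and Ddit3. Every array probe whose transcript accession mapped to one of these symbols was used, which gave 11 of the 30367 probes on the array. Sdf2l1 had 2 probes and every other gene had 1. There were 9 groups of 4 rats. A group of mock-treated rats (0 kBq) served as the control, 4 groups received 9, 88, 170 or 260 kBq of 131I by intravenous injection, and the 4 others 340, 760, 1300 or 4700 kBq. Each thyroid was analysed on its own, and the rats lived 4 to a cage, with no record used here of which group was in which cage. Each of the 36 arrays held the RNA of 1 rat. The irradiated groups were injected in order of activity and the control rats were treated last, so activity and order of injection cannot be told apart. The 8 comparisons with control share the same 4 control rats. A value below is the log2 signal of a probe minus the log2 of the 75th percentile of its array, and all 11 probes were well above background on all 36 arrays. Because probes differ in brightness, values were compared between rats for 1 probe and never between probes.

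Secreted and membrane proteins fold in the endoplasmic reticulum with the help of chaperones, enzymes that make disulfide bonds, and a cycle of sugar trimming read by lectin chaperones. When unfolded protein builds up, the sensors Ern1 (IRE1), Eif2ak3 (PERK) and Atf6 start the unfolded protein response, in which Xbp1 and Atf6 raise chaperone genes and the PERK and Atf4 branch can raise Ddit3 (CHOP). The thyroid follicular cell makes thyroglobulin, a very large glycoprotein rich in disulfide bonds, and this cell is known for a well developed endoplasmic reticulum. Hspa5 (BiP) is the main Hsp70 chaperone of the lumen, Hsp90b1 (GRP94) its Hsp90, and Sdf2l1 and Dnajb9 (ERdj4) act together with Hspa5. Pdia3 and Pdia4 are protein disulfide isomerases, and Calr and Canx are the soluble and the membrane-bound lectin chaperone. Xbp1 encodes a transcription factor that is activated by splicing of its mRNA, which was not analysed here. Ddit3 encodes a transcription factor linked to cell death under prolonged stress.

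The promoters of 9 of the 10 genes (without Pdia3) were read from RefSeq sequences of the GRCr8 build, 250 bases before to 50 bases after the start of the gene. The endoplasmic reticulum stress element, searched as CCAAT and CCACG with any 9 bases between them on both strands, was found in 5 of these 9 promoters and in 22 of 33469 promoters of the same length (0.0657%). The stretches that hold it are shown for these 5 promoters only. They are written on the strand of the gene with the element in capitals. Where it lies on the opposite strand the capitals begin with CGTGG, the reverse complement of CCACG.
Hspa5, chr3:38452953-38453011, plus strand: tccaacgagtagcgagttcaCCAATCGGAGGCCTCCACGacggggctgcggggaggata
Hsp90b1, chr7:23012327-23012489, minus strand: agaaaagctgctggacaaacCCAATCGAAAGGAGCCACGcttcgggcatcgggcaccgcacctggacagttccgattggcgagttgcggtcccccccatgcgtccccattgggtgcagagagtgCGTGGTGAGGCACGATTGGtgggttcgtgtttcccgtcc
Calr, chr19:40213117-40213173, plus strand: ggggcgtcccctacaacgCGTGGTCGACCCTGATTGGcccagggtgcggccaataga
Canx, chr10:35158049-35158107, minus strand: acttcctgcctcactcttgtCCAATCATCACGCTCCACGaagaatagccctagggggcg
Xbp1, chr14:84604538-84604596, plus strand: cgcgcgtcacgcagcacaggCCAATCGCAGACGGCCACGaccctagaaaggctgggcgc
The element began 43 bases before the start of Hspa5 and 65 bases before that of Xbp1, and Hsp90b1 held 2 copies in opposite orientation, 176 and 72 bases before its start. In Calr and Canx it lay farther away, at 232 and 230 bases. The promoters of Pdia4, Sdf2l1, Dnajb9 and Ddit3 did not hold these letters in this window. No promoter of the 9 held ATTGG and CCACG with any 1 base between them (0.0508% of all promoters), TGACGTGG (0.595%) or TTGCATCA (0.795%), the letters searched for the second stress element, for the Xbp1 and Atf6 site and for the Atf4 site. A match is a description of the sequence and was not tested for binding.

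The follicular signal was read from Iyd, the iodotyrosine deiodinase that recycles iodide in follicular cells. Its values fell into 2 clusters of 18 arrays each, with no value between -3.28 and -0.26, and Iyd was well above background on all 18 arrays above this gap and on 3 of 18 arrays below it. Both clusters occurred in every group. In the control and 4700 kBq groups 3 of 4 arrays lay above the gap, in the 9 and 340 kBq groups 1 of 4, and in the other 5 groups 2 of 4. Genes are said to rise or fall with Iyd by the limma fit described below (adjusted p under 0.01). By this rule 18.4% of all probes rose and 23.4% fell. The follicular list changed as a whole, with 13 of its 14 other genes rising with Iyd. Its summed level, as multiples of the 75th percentile, was 2.67 to 135.9 below and 227.7 to 420.1 above the gap. Of the 15 follicular genes, 7 were still above background on all 36 arrays, among them thyroglobulin, thyroid peroxidase and the TSH receptor. Others were not. Of the 18 arrays below the gap, Pax8 was above background on 13, Slc5a5 and Duoxa2 on 8 and Slc26a7 on 1. Genes of other cell types moved with Iyd as well, and their part in the results below was not tested. All 6 C cell genes and all 3 parathyroid genes rose with Iyd, with summed levels of 0.126 to 0.687 and of 0.0197 to 4.82 below the gap and of 42.3 to 244.2 and 2.06 to 139.4 above it. Of the fast muscle genes, 3 of 7 fell with Iyd, and their summed level was 743.0 to 2145 below and 0.998 to 1072 above the gap. Of the cartilage genes 4 of 6 fell, with summed levels of 0.299 to 8.16 below and 0.395 to 2.22 above the gap, and of the squamous epithelium genes 3 of 5 fell, with 0.152 to 408.7 and 0.101 to 45.7. None of the 6 slow muscle, 4 adipose and 7 lymphoid genes was called. Of 5 plasma cell genes, Derl3, which acts in degradation at the endoplasmic reticulum, and Pou2af1 rose and Tnfrsf17 fell. Their summed level, in which bright probes weigh most, was 0.083 to 0.675 below and 1.4 to 11.5 above the gap. The median slope of the 5 genes on Iyd was -0.05 (-0.34 to 0.79). Of the 5 genes, Derl3 was well above background on 35 arrays, Pou2af1 on 33, Mzb1 on 31, Tnfrsf17 on 15 and Irf4 on none. In tissue samples of this kind, fewer cells of a type and less RNA per cell cannot be told apart.

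The chaperones were high on the arrays with a follicular signal and low on the others. Hspa5 was 4.45, 3.90, 3.1 and 4.93 in the 4 control rats and 3.17, 4.93, 3.38 and 3.26 in the rats given 9 kBq. It was 3.15, 3.12, 5.77 and 4.88 after 88 kBq, and 4.45, 4.87, 3.12 and 3.35 after 170 kBq. Within each of the 9, 88 and 170 kBq groups the rats thus split into a high and a low set. The control rats were spread more evenly, and the ranges of the groups overlapped. After 260 kBq Hspa5 was 5.20, 5.99, 3.19 and 2.99, and after 340 kBq 2.86, 3.33, 3.39 and 4.63. It was 3.70, 3.15, 5.53 and 5.12 after 760 kBq, 3.32, 3.04, 5.18 and 5.63 after 1300 kBq, and 5.05, 5.06, 3.04 and 4.93 after 4700 kBq. The highest value of all, 5.99, and the lowest, 2.86, came from adjacent activities. Every array above the gap in Iyd had a higher Hspa5 value than every array below it.

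**Figure D1:**
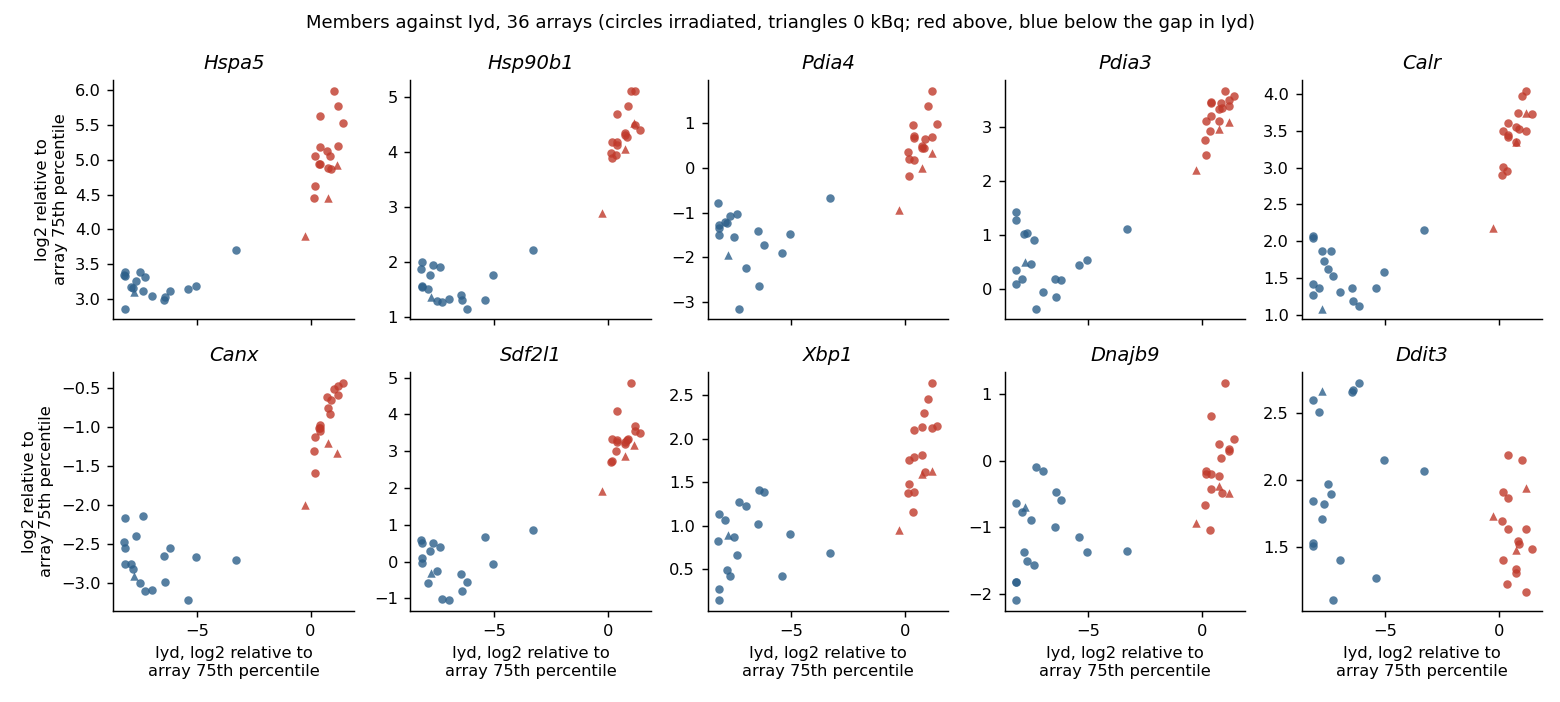
Log2 value of each of the 10 genes (vertical axes) against the log2 value of Iyd (horizontal axes) on 36 arrays, both relative to the 75th percentile of the array, with circles for irradiated and triangles for control rats, red above and blue below the gap in Iyd. The chaperones and Sdf2l1 form a low and a high cluster, and Xbp1 and Dnajb9 overlap between the clusters. The ranges of Ddit3 overlap almost completely, with a lower median above the gap.

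Of the 10 genes, 6 did not overlap between the 18 arrays below and the 18 above the gap, where 3.42% of all other probes were higher above the gap without overlap. Hspa5 ranged from 2.86 to 3.70 below the gap (median 3.16) and from 3.90 to 5.99 above it (median 4.99), a 3.55-fold ratio of the medians. Hsp90b1 ranged from 1.16 to 2.23 (median 1.54) and from 2.90 to 5.12 (median 4.30), a 6.76-fold ratio. Both luminal chaperones were thus separated by the gap in every rat. Pdia3 ranged from -0.35 to 1.42 below the gap (median 0.46) and from 2.20 to 3.67 above it (median 3.26), 6.99-fold. Its relative Pdia4 ranged from -3.15 to -0.66 (median -1.45) and from -0.94 to 1.73 (median 0.46), 3.76-fold, and here 2 arrays below the gap exceeded the lowest array above it. That lowest array was control animal 2, whose Iyd value of -0.26 was the lowest above the gap.

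The lectin chaperones behaved alike. Calr ranged from 1.09 to 2.16 below the gap (median 1.47) and from 2.19 to 4.04 above it (median 3.50), a 4.08-fold ratio of the medians. Canx ranged from -3.22 to -2.14 (median -2.73) and from -1.99 to -0.43 (median -1.0), a 3.32-fold ratio. For both genes the clusters were close but separate. Sdf2l1, which forms a complex with Hspa5 and its cofactors, had the widest separation of the 10 genes. Its main probe ranged from -1.06 to 0.87 below the gap (median -0.06) and from 1.92 to 4.87 above it (median 3.27), 10.1-fold, and its other probe gave 11.8-fold. The 2 Sdf2l1 probes correlated with r = 0.996 over the 36 arrays.

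Xbp1 and Dnajb9 differed less between the clusters. Xbp1 ranged from 0.14 to 1.41 below the gap (median 0.89) and from 0.95 to 2.65 above it (median 1.77), 1.85-fold, and 7 arrays below the gap exceeded the lowest above it. Dnajb9 ranged from -2.09 to -0.09 (median -1.07) and from -1.04 to 1.17 (median -0.20), 1.83-fold, with 9 such arrays. Ddit3 ranged from 1.11 to 2.72 below the gap (median 1.93) and from 1.17 to 2.18 above it (median 1.59), and the ranges overlapped almost completely.

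The relation to Iyd was then fitted across all probes with a mean for each group and a common slope, so that it describes differences between rats that received the same activity (limma, Benjamini-Hochberg adjusted p under 0.01 over 30366 probes). Of the 10 genes, 9 rose with Iyd, where 18.4% of all probes rose and 23.4% fell, and the median slope of the 10 genes was 0.24 log2 units per log2 unit of Iyd against -0.02 over all probes. Hspa5 rose by 0.24 per unit (SE 0.018, adjusted p = 7.4e-12), Hsp90b1 by 0.35 (SE 0.023, adjusted p = 2.6e-13) and Sdf2l1 by 0.44 (SE 0.031, adjusted p = 1.9e-12). Pdia3 rose by 0.34 (adjusted p = 7.6e-12), Pdia4 by 0.28 (adjusted p = 3.7e-10), Calr by 0.24 (adjusted p = 6.9e-11) and Canx by 0.23 (adjusted p = 8.3e-11). The slopes of Xbp1, 0.12 (95% CI 0.08 to 0.16, adjusted p = 8.4e-06), and Dnajb9, 0.11 (95% CI 0.06 to 0.16, adjusted p = 0.00039), were smaller, and their intervals lay below that of Canx (0.19 to 0.27). Ddit3 had a slope of -0.05 (95% CI -0.09 to -0.01, adjusted p = 0.0486) and was not called. It passed, as a fall, without animal 1 of the 1300 kBq group (-0.06, adjusted p = 0.0097). Most Iyd values below the gap were not well above background, so the size of each slope depends on how low these values were read. The 10 genes were chosen with earlier results of these data known, and all probes include probes that were not above background. Their share beside that of all probes is therefore a description. With the mean of the other follicular genes in place of Iyd, again 9 genes rose and Ddit3 was not called.

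**Figure D2:**
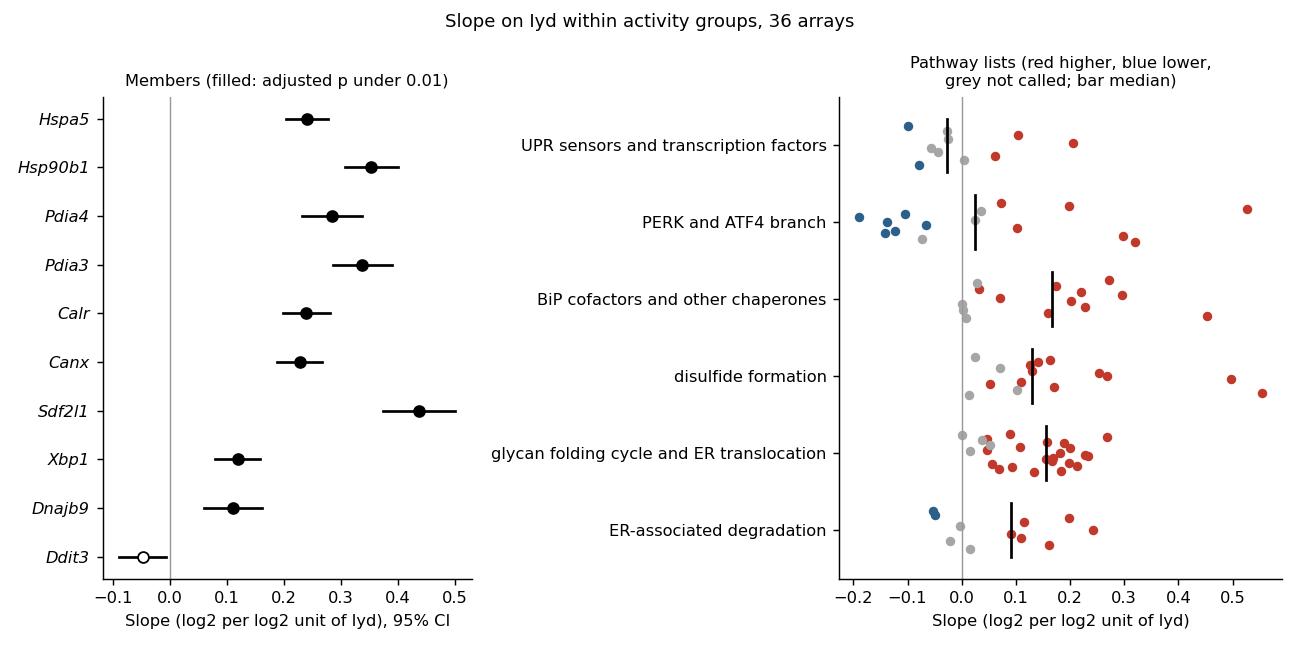
Slope on Iyd within activity groups over 36 arrays, in log2 units per log2 unit of Iyd, for the 10 genes with 95% confidence intervals (left, filled where the adjusted p was under 0.01) and for each gene of 6 pathway lists with the list median as a bar (right, red higher, blue lower, grey not called). The chaperone slopes lie between 0.23 and 0.44, those of Xbp1 and Dnajb9 near 0.12 and that of Ddit3 below 0, and the sensor and PERK lists hold genes on both sides of 0.

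The slope was positive for each of these 9 genes, and negative for Ddit3, within each of the 5 slides, which held 6 to 8 arrays. Hspa5 gave slopes of 0.18 to 0.28 in the 5 slides and Sdf2l1 0.36 to 0.50. The number of genes called was lower within single slides, with 6 of 10 in slide 1, 2 in slide 2, 7 in slide 3 and 0 in slides 4 and 5. The spread between rats of a group shrank once Iyd was taken into account, from an SD of 1.08 to 0.39 for Hspa5, from 1.56 to 0.50 for Hsp90b1 and from 1.95 to 0.69 for Sdf2l1. For Dnajb9 it went from 0.71 to 0.54, and for Ddit3 from 0.47 to 0.44.

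Since the 2 clusters dominate such a slope, the 18 arrays on each side of the gap were also fitted alone, without a group term, an alternative chosen after seeing the data. Above the gap, where Iyd was well above background throughout, the slopes of the 9 genes were 0.59 to 0.85. Of the 10 genes, 3 were called, Hsp90b1 (0.81, adjusted p = 0.00693), Calr (0.76, adjusted p = 0.00257) and Canx (0.70, adjusted p = 0.004), where 4.96% of all probes were called higher. Pdia3 (0.62, adjusted p = 0.0101), Xbp1 (0.71, adjusted p = 0.0122), Pdia4 (0.85, adjusted p = 0.0216), Hspa5 (0.69, adjusted p = 0.0372), Sdf2l1 (0.74, adjusted p = 0.0681, and 0.115 for its other probe) and Dnajb9 (0.59, adjusted p = 0.125) did not pass. Ddit3 had a slope of -0.10 (95% CI -0.44 to 0.24). Among the arrays above the gap none of the C cell and parathyroid genes was called, and 11 of 14 follicular genes rose. Below the gap the slopes of the 10 genes were -0.05 to 0.07, and none was called, where 0.0494% of probes were called higher.

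The wider folding machinery was read from 6 pathway lists outside the 10 genes. These lists were chosen with earlier results of these data known, and all probes include probes that were not above background. The shares set side by side here are therefore a description and not a test. Of 90 genes with a probe, 57 rose with Iyd (63.3%, against 18.4% of all probes), 10 fell (against 23.4% of all probes) and 23 were not called, with a median slope of 0.10. Of the Hspa5 cofactors and other chaperones, 10 of 14 rose and none fell. Creld2 (0.45) and Hyou1 (0.30), an Hsp110 that exchanges nucleotide on Hspa5, had the highest slopes. The collagen-related isomerase Fkbp14 (0.00063) and Dnajc10 (0.0020), which reduces disulfide bonds, were not called. Of the genes of disulfide formation, 11 of 15 rose and none fell, among them the isomerase Pdia6 (0.25) and the chaperone Erp29 (0.17), while Ero1a (0.01) and Txndc12 (0.03) were not called. Ero1b, the other Ero1 oxidase, had a slope of 0.55 (adjusted p = 3.9e-16) and was well above background on 18 arrays, and it is named here after its value was seen. Ero1a and Ero1b oxidise the isomerases that form disulfide bonds.

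Of the genes of the glycan folding cycle and of translocation into the endoplasmic reticulum, 21 of 25 rose and none fell. The catalytic subunit of oligosaccharyltransferase Stt3a (0.27) and the signal peptidase subunit Sec11c (0.23) had the highest slopes. Stt3b (0.0011), the alternative catalytic subunit, and the translocon subunit Sec61g (0.02) had the lowest and were not called. Of the genes of endoplasmic reticulum-associated degradation, 6 of 11 rose and 2 fell. The lectin Os9 (0.24) and the ubiquitin ligase Syvn1 (0.20) rose, and the ATPase Vcp (-0.05, adjusted p = 6.2e-05) and the conjugating enzyme Ube2j1 (-0.05, adjusted p = 0.0053) fell.

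Of the sensors and transcription factors of the stress response, 3 of 10 rose, 2 fell and 5 were not called, shares near those of all probes (18.4% higher and 23.4% lower). Eif2ak3 (0.21) and the protease Mbtps1 (0.10), which cleaves Atf6, rose, whereas Nfe2l1 (-0.10, adjusted p = 0.00031) and Atf4 (-0.08, adjusted p = 0.00022) fell. Of 15 genes of the PERK and Atf4 branch, 6 rose, 6 fell and 3 were not called. The amino acid synthesis genes Psat1 (0.53, adjusted p = 1.6e-12) and Asns (0.32, adjusted p = 5.2e-09) had the highest slopes of this branch. Nupr1 (-0.19, adjusted p = 2.8e-06), a stress-induced nuclear protein, and Chac1 (-0.14, adjusted p = 0.0018), which degrades glutathione, had the lowest. None of the 90 pathway genes was called in any of the 8 dose comparisons.

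The first question of the design was whether these genes differed between irradiated and control rats. None of the 10 genes had an adjusted p under 0.01 together with at least a 1.5-fold difference in any of the 8 comparisons (limma), and 0% of the 30367 probes did so in each. Without adjustment, 0 of the 10 genes had p under 0.05 in any comparison. The share of all probes with an unadjusted p under 0.05 was 3.22% at 9 kBq, 3.35% at 88 kBq, 2.39% at 170 kBq, 1.11% at 260 kBq, 13.6% at 340 kBq, 1.64% at 760 kBq, 4.22% at 1300 kBq and 1.66% at 4700 kBq. The mean of Hspa5 was 4.09 ± 0.78 (SD, n = 4) in controls and lay between 3.55 ± 0.75 at 340 kBq and 4.52 ± 0.99 at 4700 kBq in the irradiated groups. In order from the lowest, the Hspa5 means were those of 340, 9, 170, 0, 88, 1300, 260, 760 and 4700 kBq, and all neighbours in this order differed by less than their SD.

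The median ratio of the 10 genes was lowest in the groups with the fewest arrays above the gap. Not every gene followed this order. Ddit3 was lowest at 88 kBq (-0.53), and Pdia4 was -0.03 at 9 kBq but -0.47 at 1300 kBq. At 9 kBq, where 1 of 4 arrays lay above the gap, all 10 log2 ratios to control were negative (median -0.55, against 0.07 over all probes). At 340 kBq, also with 1 of 4, 9 of 10 were negative (median -0.58), whereas the median of all probes was 0.31. That shift of all probes at 340 kBq was -0.02 after quantile normalization, under which all 10 ratios were negative (median -0.74). At 4700 kBq, with 3 of 4 arrays above the gap as in the controls, 9 of 10 were positive (median 0.32, against 0.09 over all probes). The log2 ratios of Sdf2l1 were -1.05 (95% CI -3.77 to 1.67) at 9 kBq and -1.28 (95% CI -3.99 to 1.44) at 340 kBq. Over the alternative settings they ran from -1.95 to -0.76 and from -2.39 to -0.86. Both intervals included 0, so that differences of this size were not detectable with 4 rats a group.

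**Figure D3:**
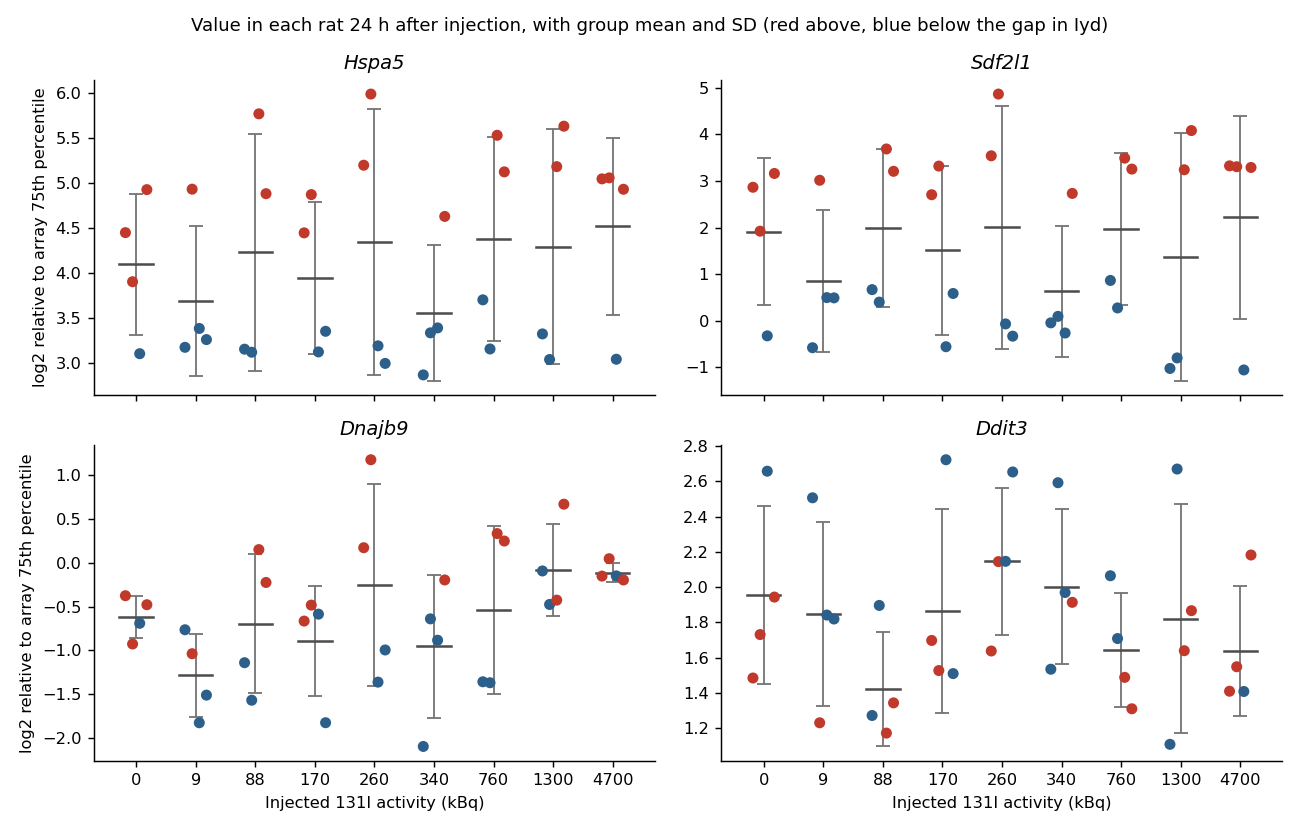
Log2 value relative to the 75th percentile of the array in each rat (points, red above and blue below the gap in Iyd) against injected activity in kBq for Hspa5, Sdf2l1, Dnajb9 and Ddit3, with the mean and SD of each group of 4. Hspa5 and Sdf2l1 split by colour within every group, and the 4 Dnajb9 values at 4700 kBq lie above the 4 control values.

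Dnajb9 at 4700 kBq was the only one of the 80 combinations of gene and comparison in which the 4 irradiated and the 4 control rats did not overlap. Dnajb9 was -0.38, -0.93, -0.69 and -0.48 in the controls and -0.15, 0.04, -0.15 and -0.20 after 4700 kBq. Every irradiated value thus lay above every control value, which was the case for 0.718% of all probes in this comparison. In the 8 comparisons this share was 0.718 to 4.08%, and that of probes with all irradiated values below all control values 0.181 to 0.55%. The log2 ratio was 0.50 (95% CI -0.50 to 1.51, adjusted p = 0.9999), and it is described here because its values did not overlap. On the 2 slides that held both groups the difference was 0.41 (2 against 2 arrays) and 0.22 (1 against 1).

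Ddit3 was 1.48, 1.73, 2.66 and 1.94 in the controls, 2.51, 1.23, 1.84 and 1.82 after 9 kBq and 1.27, 1.90, 1.17 and 1.34 after 88 kBq. The 88 kBq rats had the lowest mean, and 3 of these 4 rats lay below all controls. It was 1.70, 1.53, 2.72 and 1.51 after 170 kBq, 1.64, 2.14, 2.15 and 2.65 after 260 kBq, and 1.53, 2.59, 1.97 and 1.91 after 340 kBq. These 3 groups overlapped the controls, and none of their rats lay below all controls. Ddit3 was 2.06, 1.71, 1.49 and 1.31 after 760 kBq, 1.11, 2.67, 1.64 and 1.87 after 1300 kBq and 1.41, 1.55, 1.41 and 2.18 after 4700 kBq. The largest difference from control was -0.53 at 88 kBq (95% CI -1.22 to 0.15).

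The groups were also compared at an equal Iyd value. None of the 10 genes passed the limits, where 0.00659% of probes did so at 9 kBq, 0.00988% at 88 kBq, 0.00659% at 170 kBq, 0.0132% at 4700 kBq and 0% in the other 4 comparisons. Of the 10 ratios, 7 to 10 were positive in each comparison, with medians of 0.24 to 0.64. The median of all probes was also positive in each, at 0.01 to 0.18. The 8 comparisons share the same 4 control rats, so the repeated sign is not independent. At 9 kBq 3 of 10 genes had an unadjusted p under 0.05, where 4.88% of all probes had one. They were Pdia4 (1.2, 95% CI 0.36 to 2.05), Canx (0.77, 95% CI 0.14 to 1.39) and Hspa5 (0.64, 95% CI 0.05 to 1.23), and each had an adjusted p of 0.891 (limma). At 1300 kBq Hspa5 had a ratio of 0.61 (95% CI 0.04 to 1.18, adjusted p = 0.857 by limma), as the only 1 of 10 genes with an unadjusted p under 0.05, where 4.83% of probes had one. In the other 6 comparisons this count was 0 of 10, where the share of all probes was 5.39% at 88 kBq, 3.1% at 170 kBq, 1.82% at 260 kBq, 10.6% at 340 kBq, 2.68% at 760 kBq and 2.84% at 4700 kBq. At 9 kBq 1 of 4 arrays and in the controls 3 of 4 lay above the gap, so that these ratios rest on the fitted slope.

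**Figure D4:**
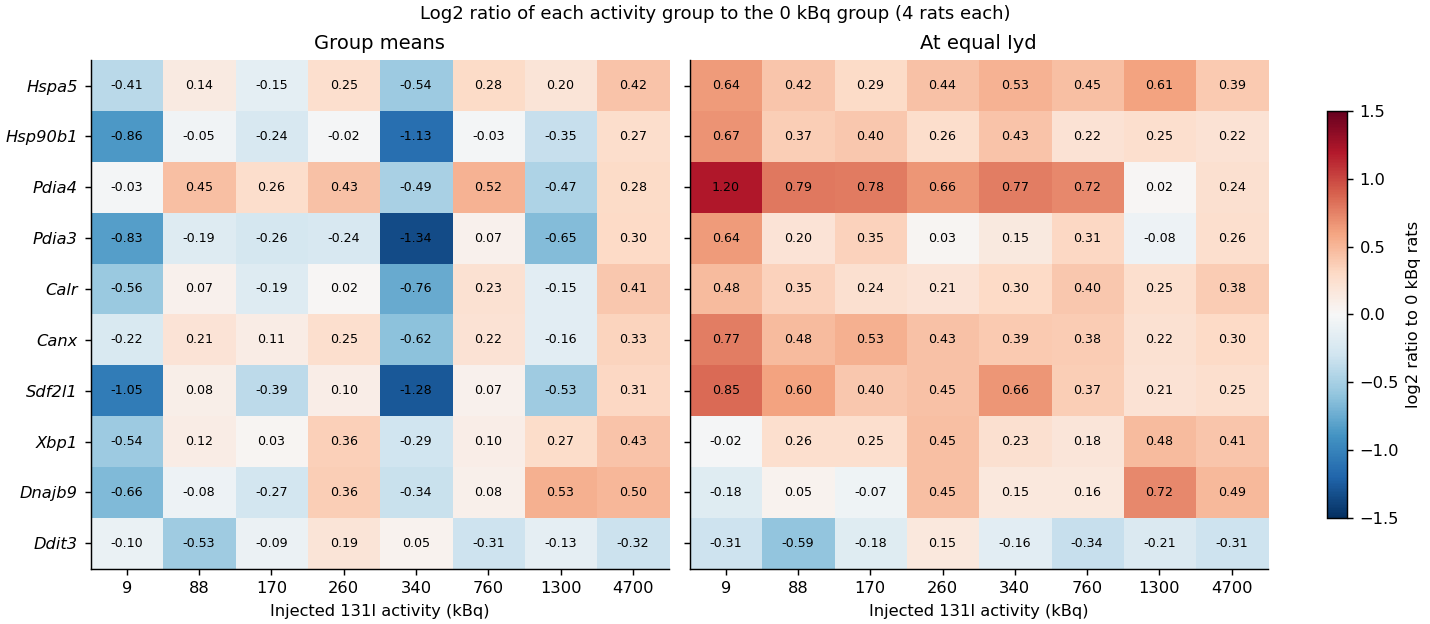
Log2 ratio of each irradiated group to the 4 control rats for the 10 genes, as group means (left) and at an equal Iyd value (right), with activity in kBq on the horizontal axis and the ratio as colour and number. Negative ratios at 9 and 340 kBq on the left are mostly positive on the right, and no ratio passed the limits.

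Across the 32 irradiated rats no gene of the 10 was called for a slope on log10 of activity, where 0.0132% of probes were called. Among the main probes Dnajb9 had the highest slope, 0.44 per unit of log10 activity (95% CI 0.11 to 0.77, adjusted p = 0.305), followed by Sdf2l1 (0.35, 95% CI -0.50 to 1.19, and 0.45 for its other probe, 95% CI -0.40 to 1.30) and Xbp1 (0.31, 95% CI 0.01 to 0.61, adjusted p = 0.454). Dnajb9 and Xbp1 were the 2 of 10 genes with an unadjusted p under 0.05, where 4.58% of all probes had one with a positive and 6.29% with a negative slope. The slopes of Pdia4 (-0.01) and Ddit3 (-0.03) were near 0 and their signs differed between scalings. At an equal Iyd value again none of the 10 was called (0.0296% of probes), an alternative chosen after seeing the data. There Dnajb9 had a slope of 0.28 (95% CI 0.03 to 0.53, adjusted p = 0.205), Pdia4 -0.40 (95% CI -0.66 to -0.13, adjusted p = 0.107) and Canx -0.20 (95% CI -0.38 to -0.01, adjusted p = 0.23). These were the 3 of 10 genes with an unadjusted p under 0.05, where 12% of all probes had one with a positive and 8.15% with a negative slope. Xbp1 had a slope of 0.14 (95% CI -0.05 to 0.34).

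What the genes shared after group means and the common Iyd slope had been removed was described by correlating their residuals over the 36 arrays. Above the gap the slopes of the 9 rising genes were steeper, for example 0.69 against 0.24 for Hspa5 and 0.76 against 0.24 for Calr. Part of the relation to Iyd can therefore remain in these residuals. The arrays share slides and scaling, and these correlations carry no test. The 21 pairs among Hspa5, Hsp90b1, Pdia4, Pdia3, Calr, Canx and Sdf2l1 had r between 0.67 and 0.92 (median 0.79), and between 0.65 and 0.90 without the 2 most extreme arrays of the first gene. Xbp1 and Dnajb9 correlated with each other at r = 0.84 (Spearman's rho 0.847, 0.886 without the 2 most extreme arrays). Their 14 pairs with the 7 chaperones had r between 0.02 and 0.54 (median 0.21). The 9 pairs with Ddit3 had r between -0.22 and 0.27. These blocks were less distinct above the gap. Among the 18 arrays above it, the 21 chaperone pairs had r between 0.59 and 0.94 (median 0.77), Xbp1 and Dnajb9 0.82, and the 14 pairs of Xbp1 or Dnajb9 with a chaperone 0.26 to 0.69 (median 0.52). Among the 18 below it, the chaperone pairs had 0.71 to 0.95 (median 0.80), Xbp1 and Dnajb9 0.86, and the 14 pairs between them -0.19 to 0.46 (median 0.02). The pairs with Ddit3 had r between 0.00 and 0.36 above the gap and between -0.42 and 0.38 below it.

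**Figure D5:**
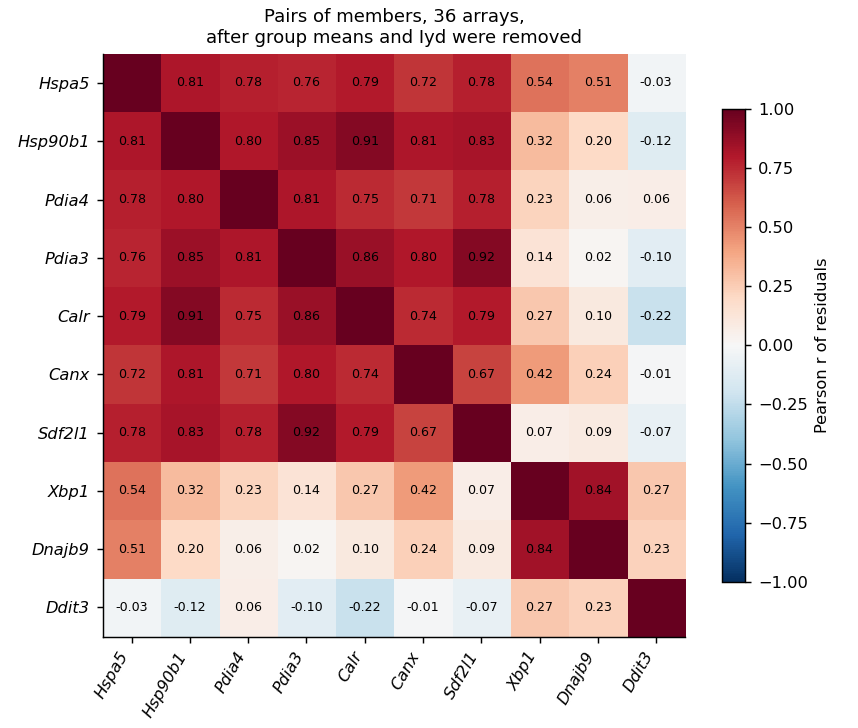
Pearson r between the residuals of each pair of the 10 genes over 36 arrays, after group means and the Iyd slope were removed, with r as colour and number. The 7 chaperones form a block of 0.67 to 0.92, Xbp1 and Dnajb9 a pair of 0.84, and the Ddit3 row stays between -0.22 and 0.27.

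Among 10532 other genes above background on all arrays, those most like Hspa5 over the 36 arrays were Pdia6 (r = 0.979), the Hspa5 co-chaperone Dnajb11 (0.973), Hyou1 (0.972), the oligosaccharyltransferase subunit Rpn1 (0.969) and Creld2 (0.969). For the residuals they were Dnajb11 (0.930), Pdia6 (0.891), Ggct (0.849), Hyou1 (0.848) and Gmppb (0.824), an enzyme that makes GDP-mannose for glycans. The genes most like Ddit3 were Ppip5k1 (0.783), Kitlg (0.770), Dipk1b (0.768), Fuom (0.762) and Acvrl1 (0.756). For the Ddit3 residuals they were Dglucy (0.834), Ldhb (0.799), Kitlg (0.770), Atp1b1 (0.763) and Ralgdsl1 (0.747). None of these 9 genes was among the pathway lists.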

How the data were processed

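Thyroid RNA of 36 rats was measured on Agilent SurePrint G3 Rat GE 1-colour arrays. Per the file headers, the deposited intensity values were extracted with Feature Extraction 10.7.3.1, whose processed signal is background-subtracted and not normalized between arrays. The submitters' processing notes also name Partek, and the matrix deposited by the authors holds quantile-normalized intensity on a linear scale. Control and outlier spots were left out, spots of a probe were averaged, and the log2 processed signal minus the log2 of the 75th percentile of each array (1594 to 4298) was analysed. No filter on low values was applied, and 60.1 to 88.5% of probes were well above background (median 70.0%). Of 30367 probes, 17998 (59.3%) matched a symbol through their accession in the RefSeq table, and 99 lacked a value on some array and were fitted on the others.

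Groups came from the sample labels. Tests were made with limma 3.58.1 in R 4.3.3 (lmFit and eBayes) over all probes with Benjamini-Hochberg adjustment, using group means, group means plus a slope on Iyd, or log10 of activity, and called at an adjusted p under 0.01 and, between groups, a fold change of at least 1.5, the limits of the study, whose test was not named. For a gene with several probes the one with the highest mean was used. All 10 members were named, and of each pathway list the 2 genes with the highest and the 2 with the lowest slope that were above background on all arrays. The members and lists were chosen with earlier results of these data known. Scripts were tested on simulated data. The p-values weigh a difference or slope against the spread between rats, which was estimated over all arrays of a fit. The precision of a group comparison also depends on the 4 rats in each group.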

Additional observations from a re-analysis of the deposited data

Results flagged for a closer look

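In 15 of the 90 sets of 4 rats (10 genes in 9 groups), 1 rat lay apart, with a gap to its nearest neighbour of more than 0.829 of the range of its group. Chance alone flags about 1 set in 20, and genes of the same rat are not independent. At 4700 kBq animal 3 was the lowest for 7 genes, with gaps of 0.937 of the range for Hspa5, 0.947 for Hsp90b1, 0.905 for Pdia4, 0.901 for Pdia3, 0.875 for Calr, 0.873 for Canx and 0.992 for Sdf2l1. It was the array of its group below the gap in Iyd. At 340 kBq animal 4, the array of its group above the gap, was the highest for Hsp90b1 (0.891), Pdia3 (0.843) and Sdf2l1 (0.881). At 9 kBq animal 2, also the array above the gap, was the highest for Hspa5 (0.881) and Pdia4 (0.886). The 3 remaining flags were at 170 and 1300 kBq, groups with 2 arrays on each side of the gap. Dnajb9 was lowest in animal 4 at 170 kBq (-1.82 against -0.67 for the nearest rat, 0.864 of the range), and Ddit3 was highest in animal 3 of that group (2.72 against 1.70, 0.845). Xbp1 was highest in animal 4 at 1300 kBq (2.11 against 1.41, 0.841). The slope on Iyd did not differ detectably between irradiated and control rats for any of the 10 genes (limma interaction, adjusted p = 0.9997 for each).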

How the results depend on the processing

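The number of genes called in each dose comparison, plain or at equal Iyd, and for the activity trend stayed at 0 of 10 under quantile normalization, median centring, normexp background correction, the matrix of the authors, a filter on dim probes, slide or scan day as a block, trended and robust variances, array weights, an adjusted p under 0.05, a fit of only the groups compared and without any 1 rat. The number of genes rising with Iyd was 9 under these, with the follicular list mean and with no group term. It was 6, 2, 7, 0 and 0 in slides 1 to 5 alone, and in the alternatives chosen after seeing the data 3 above the gap and 0 below it, where fewer arrays were fitted. Below the gap the slopes of Canx (-0.054) and Pdia3 (-0.0094) changed sign. Ddit3 was called lower, as 1 gene, with array weights (adjusted p = 0.0052), at an adjusted p under 0.05 and without 1300 kBq animal 1 (-0.06, adjusted p = 0.0097). Leaving out 1 rat gave 9 genes rising each time and 0 to 1 falling. Animal numbers did not pair the rats (57 of 144 same-numbered pairs correlated above 0.1, median -0.03), and the animal number as a replicate block left 0 of 10 genes called between groups and 9 rising with Iyd. Single ratios moved more. Over the alternatives Sdf2l1 ran from -2.39 to -0.86 at 340 kBq and from -1.95 to -0.76 at 9 kBq (-1.79 to -0.57 without 1 rat), and its activity trend from -0.24 (Iyd as a covariate) to 0.87 (array weights). At 760 kBq 9 of 10 ratios changed sign with array weights, for example Sdf2l1 (-1.36 against 0.07), and Hsp90b1 ran from -1.25 to 0.37. The estimation of array weights stopped before its convergence tolerance in part of these fits. Dnajb9 at 4700 kBq ran from 0.39 to 0.54 and Pdia4 at 9 kBq and equal Iyd from 1.08 to 1.37. With 4 rats a group, ratios smaller than the distance from an estimate to the end of its interval could not be told from 0.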
